A study of Mus musculus with 46 samples.

Results

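The p53-/- transplant tumors were compared with the normal mammary gland in 12 of the 46 arrays of the study, namely the 7 arrays titled p53-/- and the 5 titled FVB pregnant. The tumors were primary mammary tumors of female Balb/C mice, each from its own animal, and the labels give p53-/- as the genotype. The study's text describes the same model both as a p53-/- knockout and as a floxed p53 allele removed by MMTV-driven cre, grown as a transplant, so the labels' name is used here. Whether the hosts of the transplants carried p53, and whether several tumors descended from the same transplanted tissue, is not given in the sources used here. The normal glands came from pregnant FVB females, for which the labels give no engineered allele. Whether the tumor-bearing mice were pregnant is not given in the sources used here. No normal Balb/C gland, no gland of a mouse that was not pregnant and no p53-/- gland without a tumor was analysed here. Because p53-/- was also the only Balb/C group, strain, p53 genotype, tumor formation and pregnancy cannot be told apart in this comparison, the milk and hormone response genes included. The 34 tumors of the other 7 models (C3(1)/Tag, MMTV-c-Myc, MMTV-Her2/neu, MMTV-H-Ras, MMTV-PymT and MMTV-Wnt1 in FVB, and BRCA1-/-p53+/- in 129B6/FVB) served only to show where the p53-/- tumors differed from the rest. Because the groups were set by the labels, no measured value chose them.

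p53 is a transcription factor that cells stabilize after DNA damage or oncogene activity. It switches on genes that halt the cell cycle, such as Cdkn1a and Ccng1, genes that start apoptosis, such as Bbc3 and Fas, and its own antagonist Mdm2. The gland of late pregnancy is a secretory epithelium set in a fat pad, in which prolactin signals through STAT5 to milk protein genes, with a contractile myoepithelial layer around the alveoli.

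All levels are log2 GC-RMA values, on which a difference of 1 is a 2-fold change and values near 2 lie at the floor of the scale, so that a difference from a group at the floor understates the change. Of 18586 probe sets in the table, 9329 genes were tested, each by 1 probe set. The median of each array over all probe sets lay between 7.165 and 7.485 in the 7 tumors and between 6.751 and 7.143 in the 5 glands, without overlap. The mean correlation between arrays over the 9329 genes tested was 0.886 among the tumors and 0.936 among the glands. Against the normal gland, 1982 genes (21.2%) were higher and 1268 (13.6%) lower in the tumors by at least 2-fold at an adjusted p under 0.05 (limma), which made 61.0% of the calls upward. The split depended on scaling, with 1583 higher and 1576 lower after quantile normalization and 1410 higher and 1865 lower after each array was centred on its median. The median difference over all genes was 0.24 as deposited, 0.059 after quantile normalization and -0.13 after centring, and the list medians below are to be read against it. At an adjusted p under 0.05 alone, the call used for members of gene lists, 26.1% of the 9329 genes were higher and 16.6% lower, 42.7% in all. All 7 tumors lay above all 5 glands in 14.2% of genes and below them in 9.66%. Set beside the other 7 models, 10.6% of genes were higher and 5.69% lower at an adjusted p under 0.05, and 616 (6.6%) were higher and 289 (3.1%) lower by at least 2-fold as well. Both comparisons share the 7 p53-/- tumors, so they are not independent. Trp53 itself was not analysed here, and the labels were not checked at the targeted gene.

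Promoters of some of the genes compared are shown first, as the 200 bases before the start site in RefSeq's annotation of mouse build GRCm38.p6, with the matched letters in capitals and positions counted from the start site. The casein promoter stands for the milk genes that fell, the kinesin and helicase promoters for the mitosis and replication genes that rose, the Ifit1 promoter for the interferon genes, and the last 2 for p53 targets, of which Ccng1 fell and Cdkn1a was not called. The letters searched were TTCNNNGAA for STAT5, CCAAT and TTTGAA (the latter known as the cell cycle homology region) for mitosis genes, TTTCCCGC, TTTGGCGC, TTTCGCGC and TTTGCCGC for E2F, the interferon-stimulated response element core (a pair of GAAA separated by 2 bases of any kind), and the decameric p53 half-site, all on both strands.
Csn2, chr5:87699426-87699625, minus strand, STAT5 letters at -93: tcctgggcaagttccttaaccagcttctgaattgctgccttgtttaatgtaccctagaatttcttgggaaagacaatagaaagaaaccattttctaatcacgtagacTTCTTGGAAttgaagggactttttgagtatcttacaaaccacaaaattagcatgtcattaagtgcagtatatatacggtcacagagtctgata
Kif11, chr19:37376182-37376381, plus strand, CCAAT at -45 and TTTGAA at -19, both on the opposite strand: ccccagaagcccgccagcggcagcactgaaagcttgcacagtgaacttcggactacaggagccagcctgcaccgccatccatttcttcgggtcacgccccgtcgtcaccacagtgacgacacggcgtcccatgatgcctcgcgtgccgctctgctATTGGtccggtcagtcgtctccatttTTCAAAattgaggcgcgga
Mcm5, chr8:75109309-75109508, plus strand, 2 overlapping E2F matches from -153: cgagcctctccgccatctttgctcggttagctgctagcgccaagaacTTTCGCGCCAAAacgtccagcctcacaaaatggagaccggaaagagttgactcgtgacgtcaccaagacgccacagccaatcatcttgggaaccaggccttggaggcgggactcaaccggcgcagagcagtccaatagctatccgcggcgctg
Ifit1, chr19:34640689-34640888, plus strand, matches at -104 and -85 on the opposite strand: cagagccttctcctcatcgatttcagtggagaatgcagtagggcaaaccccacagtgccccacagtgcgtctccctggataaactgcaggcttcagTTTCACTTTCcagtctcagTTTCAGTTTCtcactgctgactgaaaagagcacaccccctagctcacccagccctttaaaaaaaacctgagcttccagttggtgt
Ccng1, chr11:40755287-40755486, minus strand, half-site at -185: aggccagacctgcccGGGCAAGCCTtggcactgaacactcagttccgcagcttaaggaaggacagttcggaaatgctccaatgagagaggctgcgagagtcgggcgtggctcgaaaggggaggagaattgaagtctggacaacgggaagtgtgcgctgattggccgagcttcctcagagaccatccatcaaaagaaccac
Cdkn1a, chr17:29090779-29090978, plus strand, half-sites at -73 and -51, the listed promoter of 2 that held them: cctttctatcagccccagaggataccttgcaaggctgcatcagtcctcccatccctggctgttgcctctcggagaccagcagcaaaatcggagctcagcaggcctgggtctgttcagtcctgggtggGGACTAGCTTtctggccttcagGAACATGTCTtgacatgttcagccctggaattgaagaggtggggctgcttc

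A match is a description of letters and not a measured binding site. Cdkn1a has 2 listed promoters, and its positions are counted from the start site of the one shown. Which of the 2 start sites was used in these tissues was not tested. Over the whole promoter window of the RefSeq table, which runs a little past the start site, 4 of the 9 casein and whey genes with a promoter in the table (Csn1s1, Csn1s2a, Csn2 and Glycam1) held the STAT5 letters, against 9.55% of 27025 genes, and 0 of 16 milk fat genes did. CCAAT was present in 18 of 24 mitosis genes against 41.1% of all genes, and TTTGAA in 16 of 24 against 20.2%. Any of the E2F motifs was found in 11 of 22 DNA replication genes and in 1 of 24 mitosis genes, against 2.6% of all genes. The interferon letters, a motif added after the values had been seen, were in 10 of 17 interferon genes against 3.99%, and the p53 half-site in 11 of 32 p53 targets against 9.55%.

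The p53 target genes did not move together. Among 11 tested targets in cell cycle arrest, 4 were higher and 3 lower than in the gland, and the list's median difference was 0.14, which became -0.13 after quantile normalization and -0.21 after centring. Among 14 apoptosis targets 3 were higher and 4 lower, among 8 feedback genes and partners 1 was higher and 1 lower, and among 9 DNA repair and metabolism targets 2 were higher and 3 lower. These shares are to be read beside the 26.1% of all genes that were higher and the 16.6% that were lower.

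Ccng1, which encodes cyclin G1 and is a direct p53 target, fell in every tumor. Its level was 9.20, 8.98, 10.44, 10.38, 8.88, 9.29 and 9.37 in tumors 1 to 7 and 12.22, 12.22, 12.26, 11.87 and 12.35 in glands 1 to 5, so that the highest tumor was below the lowest gland. The difference was -2.68 ± 0.39 (SE, adjusted p = 7.11e-07 by limma, n = 7 and 5), a 6.39-fold decrease, and Ccng1 was also lower than in the other 7 models, by -1.42 (adjusted p = 0.00037), whose means ran from 9.86 to 11.72. Dcxr, a sugar reductase, ranged over the tumors from 4.44 to 8.55 with a median of 6.67, against 10.90, 10.43, 9.99, 9.57 and 11.16 in the glands. Every tumor was below every gland, with a difference of -3.88 (adjusted p = 2.85e-06). Phlda3, an inhibitor of AKT signalling, was lower by -2.60 (adjusted p = 0.00165) with some overlap of the groups, and Fas, the death receptor, by -1.85 (adjusted p = 0.0002) with none. Rrm2b, the p53-induced ribonucleotide reductase subunit, was lower by -1.34 (adjusted p = 0.000132), and Sesn1 by -0.98 (adjusted p = 0.0162), although the mean of the Sesn1 probe sets differed by only -0.31 (adjusted p = 0.592).

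Cdkn1a, the CDK inhibitor p21 and the best known arrest target, was not distinguishable between the groups. The tumors ran from 7.69 to 10.78 with a median of 9.48, and the glands measured 9.46, 11.16, 9.52, 7.55 and 7.88. The groups overlapped over most of their range, and the difference was 0.14 ± 0.78 (adjusted p = 0.902), or -0.13 after quantile normalization. Btg2 (0.74, adjusted p = 0.194), the apoptosis genes Bbc3 (-0.65) and Pmaip1 (1.23), and Trp63, the p53 relative of basal cells (-1.26), did not pass the test either.

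Other targets were higher in the tumors. Gadd45a, a stress-response gene, ranged from 8.78 to 10.21 with a median of 9.36, against 6.50, 3.23, 6.15, 6.00 and 5.98 in the glands. All tumors exceeded all glands, by 3.87 ± 0.56 on the mean (adjusted p = 7.1e-07). Plk2, a kinase of the stress response, was higher by 3.26 (adjusted p = 0.00013), and Sfn, encoding 14-3-3 sigma, by 3.50 (adjusted p = 0.000683), both without overlap. Apaf1 and Bid, which act in mitochondrial apoptosis, rose by 1.92 and 2.00, and the DNA polymerase gene Polk by 2.47. Mdm2, the ubiquitin ligase that degrades p53, measured 7.99 to 9.21 with a median of 8.66 in the tumors and 6.64, 6.98, 7.28, 7.46 and 7.34 in the glands. The 2 groups did not overlap and the difference was 1.45 (adjusted p = 0.0327), but the call was lost after quantile normalization (1.13, adjusted p = 0.0794), after centring (1.10, adjusted p = 0.089), and without tumor 4 (1.35, adjusted p = 0.0575), tumor 6 (1.40, adjusted p = 0.0516), gland 1 (1.33, adjusted p = 0.078) or gland 2 (1.41, adjusted p = 0.0602). Compared with the other 7 models, Gadd45a (1.09, adjusted p = 0.0554) and Mdm2 (0.97, adjusted p = 0.0859) did not pass the test.

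**Figure D1:**
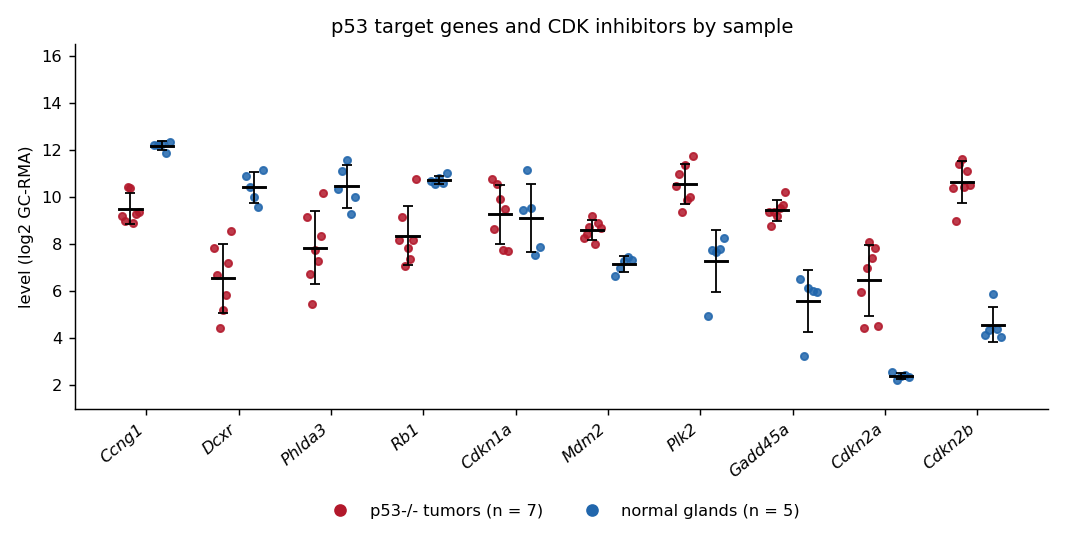
Levels (log2 GC-RMA) of 10 p53 targets and cell cycle inhibitors in the 7 p53-/- tumors (red) and the 5 normal glands (blue); each point is an array, the wide bar is the mean and the whiskers are the SD. Ccng1 and Dcxr are lower in every tumor than in every gland, Cdkn1a overlaps, and Gadd45a, Cdkn2a and Cdkn2b are higher in every tumor than in every gland.

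The CDK inhibitors and pocket proteins, which restrain entry into S phase, split by gene. Cdkn2b, encoding p15INK4B, ranged from 8.98 to 11.63 with a median of 10.52 in the tumors, against 4.15, 4.35, 5.88, 4.39 and 4.06 in the glands. Every tumor was above every gland and the difference was 6.07 ± 0.83 (adjusted p = 2.19e-07), a 67.2-fold increase. Cdkn2a, whose locus encodes both p16INK4A and the p53 activator ARF, was 4.43 to 8.08 in the tumors with a median of 7.00, and 2.54, 2.20, 2.40, 2.44 and 2.34 in the glands. The glands were at the floor and all tumors above them, with a difference of 4.07 ± 0.93 (adjusted p = 0.00046). Both exceeded the mean of the other 7 models, Cdkn2b by 2.91 (adjusted p = 0.000581) and Cdkn2a by 2.53 (adjusted p = 0.00646), although the C3(1)/Tag mean for Cdkn2a, 7.84, was above the p53-/- mean of 6.46. For Cdkn2b the C3(1)/Tag mean was 9.97, against 10.64 in p53-/-. Rb1, the retinoblastoma protein, was 7.06 to 10.75 in the tumors with a median of 8.15, against 10.68, 10.55, 10.79, 10.61 and 11.01 in the glands. Tumor 7 alone, at 10.75, fell within the range of the glands, and the difference was -2.38 (adjusted p = 1.95e-05). Cdkn2c, encoding p18INK4C, was lower by -2.48 and Cdkn1c, encoding p57, by -1.71, while Cdkn1b (1.03) and Rbl2 (-0.92) did not pass the test. The Cdkn1c call was lost without tumor 4, tumor 6 or gland 3. Among the 11 tested genes of this list 4 were higher and 3 lower, beside 26.1% and 16.6% of all genes. Rb1 and Cdkn2c were also lower than in the other 7 models, by -1.36 and -1.26, the Cdkn2c call being lost without tumor 3.

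Genes of the cell cycle rose together. All 28 tested mitosis and spindle genes were higher in the tumors at a median difference of 3.31, and in 26 of them every tumor was above every gland, against 14.2% of all genes. Of 26 DNA replication genes 23 were higher and 0 lower (median 3.07), of 14 cyclins and kinases 10 were higher and 0 lower (median 1.73), and of 15 genes of the DNA damage response and homologous recombination 8 were higher and 0 lower (median 1.95).

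Plk1, a kinase that drives mitotic entry and exit, ranged from 8.12 to 9.82 with a median of 8.85 in the tumors and was 3.94, 2.78, 2.81, 4.69 and 3.88 in the glands. The lowest tumor lay well above the highest gland, and the difference was 5.31 ± 0.77 (adjusted p = 6.6e-07). Aurka, the spindle pole kinase, was higher by 6.07 (adjusted p = 3.67e-08), Bub1, of the spindle checkpoint, by 5.22, Cenpf, a kinetochore protein, by 5.07, and Kif11, the kinesin whose promoter is shown above, by 3.67. Mcm5, a subunit of the replicative helicase, was 7.74 to 9.55 with a median of 9.06 in the tumors, against 5.14, 5.24, 5.27, 2.67 and 5.48 in the glands. The groups did not overlap and differed by 4.13 ± 0.74 (adjusted p = 2.18e-05). Tk1, of the thymidine salvage pathway, rose by 4.94 and Mcm3 by 4.47, whereas Fen1 (0.01), Tyms (-0.13) and Rfc4 (1.20) did not pass the test. Mki67, the proliferation marker, differed less, by 2.27 (adjusted p = 9.33e-05), and gland 4 at 10.78 lay above the lowest tumor at 10.75. Brca1 rose by 4.45 and Rad54l by 3.84, both repair genes of S phase, and the damage kinases Atm (0.96), Atr (0.34) and Chek2 (-0.75) were not called. Compared with the other 7 models, 3 of 28 mitosis genes were higher (Cenpe, Pttg1 and Bub3), a share near the 10.6% of all genes, and 8 were higher at an unadjusted p under 0.05. The Bub3 call was lost under either scaling, with the mean of its probe sets, and without tumors 3, 4 or 5. Of 26 replication genes 0 were called in either direction (limma), and 2 were higher and 1 lower at an unadjusted p under 0.05.

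Interferon response genes, the antiviral program that type I interferons induce through STAT and IRF factors, were higher in the p53-/- tumors than in the gland and than in the other tumors. Of 22 tested genes 19 were higher than in the gland and 0 lower (median 3.48), and in 16 of them all tumors were above all glands. Against the other 7 models 20 of 22 were higher and 0 lower (median 2.89), beside 10.6% of all genes. Ifit1, an inhibitor of foreign RNA translation, was 8.13 to 10.46 in the tumors with a median of 9.77, and 2.08, 2.09, 2.28, 2.28 and 2.28 in the glands. The glands were at the floor, and the difference was 7.48 ± 1.26 (adjusted p = 7.74e-06). Its means in the other models ran from 2.81 in MMTV-Wnt1 to 8.61 in MMTV-PymT, all under the p53-/- mean of 9.68, and the difference from them was 3.61 (adjusted p = 0.00431). Oasl2, of the 2'-5' oligoadenylate synthetase family, rose by 7.37, Usp18, a negative regulator of interferon signalling, by 6.91 and Oasl1 by 5.90, and each was also above the other models, by 3.34, 4.12 and 4.50. The chemokine gene Cxcl10 was higher by 4.91, the factor Irf7 by 4.10 and Mx1 by 3.69. Irf9 (1.08), Iigp1 (0.69) and Gbp2 (0.66) did not pass the test against the gland. With glands 4 and 5 alone, 11 of the 22 were called at a similar median of 3.32 in that smaller comparison, and with tumors 3 and 4 left out, 16 were called against the gland and 16 against the other models.

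For some genes the mean of the p53-/- tumors lay far from that of every other group, the normal gland included. Gbp2b, a guanylate-binding protein of the interferon response, ranged from 7.49 to 11.78 in the tumors with a median of 10.11 and was 2.23, 2.16, 2.20, 2.22 and 2.17 in the glands. It was at the floor in all FVB groups, with means from 2.13 to 2.19, and 3.92 in the BRCA1-/-p53+/- tumors of mixed strain. The difference was 8.04 against the gland (adjusted p = 3.23e-13) and 7.83 against the other models. Ifi44l showed the same order, with a mean of 9.23 in the p53-/- tumors, 4.55 in the BRCA1-/-p53+/- tumors and 2.29 to 2.77 elsewhere. Slfn4, a Schlafen family gene of myeloid cells, was higher by 5.70 against the gland and 5.16 against the other models, and Mndal, an interferon-inducible DNA sensor gene, by 2.19 and 4.96. Mndal was well above the floor in the gland, at a mean of 6.27, and overlapped with the tumors.

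Gdpd3, a lysophospholipase D, went the other way. Its level was between 3.18 and 3.33 in all 7 tumors and 10.78, 11.37, 11.19, 11.54 and 10.78 in the glands, and its mean in the other models lay between 9.12 and 12.03. No p53-/- tumor came near any other group, and the differences were -7.85 (adjusted p = 1.77e-11) and -6.75 (adjusted p = 2.01e-13). For Pdxdc1, a decarboxylase-like gene, the probe sets disagreed. The brightest was lower by -5.57, while another was higher by 8.14 (adjusted p = 1.51e-26) and the last lower by -1.91, and the mean of the probe sets differed by 0.22 (adjusted p = 0.437), so no direction is given for this gene. Some genes of the major histocompatibility complex, which are known to differ in sequence between strains, also separated, and others did not. H2-Eb1, a class II beta chain, was 7.64 to 11.90 in the tumors with a median of 10.16, against 5.49, 5.71, 4.29, 4.15 and 5.11 in the glands, and its mean in the BRCA1-/-p53+/- tumors was 8.16. All tumors were above all glands, by 5.16 (adjusted p = 2.78e-06), and by 5.33 above the other models. H2-Q2, a class I gene, lay between 2.22 and 3.03 in the tumors and between 4.73 and 8.26 in the glands, lower by -3.82. The class I genes H2-D1 and H2-K1 had close means, at 13.75 and 13.44 in the tumors and 14.05 and 13.68 in the glands. H2-Ea, a class II alpha chain counted outside the class II list, averaged 9.94 in the tumors and 6.83 in the glands. Its means in the other models ran from 6.09 to 7.7. Of the 6 tested genes in the class II list 2 were higher, H2-Eb1 and H2-DMa, and 0 lower. The H2-DMa difference (2.01, adjusted p = 0.0499) was no longer called, leaving 1 gene, after quantile normalization (1.69, adjusted p = 0.0945), after centring (1.66, adjusted p = 0.0923), without a filter (2.01, adjusted p = 0.0562), and without any single gland or any single tumor but tumor 5. The genes H2-Aa (-0.75), H2-Ab1 (0.40) and Cd74 (0.42), of class II antigen presentation, did not pass the test. Whether a strain's sequence changes how a probe set binds was not tested.

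**Figure D2:**
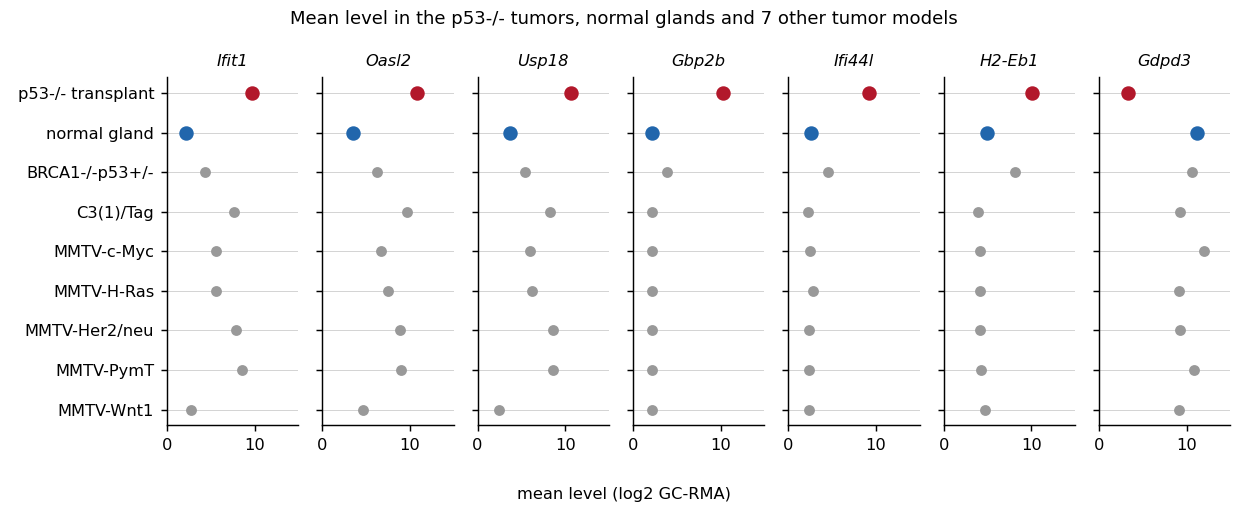
Mean level (log2 GC-RMA) of 7 genes in the p53-/- tumors (red), the normal glands (blue) and the 7 other tumor models (grey). Ifit1, Oasl2 and Usp18 are graded across the models and highest in the p53-/- tumors, whereas Gbp2b, Ifi44l and H2-Eb1 are high and Gdpd3 is low in the p53-/- tumors, with the BRCA1-/-p53+/- model next highest in Gbp2b, Ifi44l and H2-Eb1.

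The study lists this model among its basal models. The luminal keratins did not move together, since Krt8 and Krt18 were higher in the tumors and Krt19 was not. Krt19 averaged 8.7 in the tumors and 10.9 in the glands, and the epithelial marker Epcam 13.58 and 12.02. Krt8, a keratin of luminal cells, was 13.53 to 14.94 in the tumors with a median of 14.35, and 12.26, 11.63, 11.54, 12.02 and 12.98 in the glands. Every tumor was above every gland, by 2.31 ± 0.40 (adjusted p = 1.02e-05), and its partner Krt18 was higher by 2.37 (adjusted p = 0.00029). In bulk tissue, fewer cells of a type and less RNA per cell cannot be told apart, here and in every comparison below. Krt7, a simple-epithelial keratin, was higher by 6.82 and the tight junction gene Cldn4 by 4.52, and Elf3, an epithelial ETS factor, was higher by 4.34 against the gland and by 3.33 against the other models. Elf5, the ETS factor that directs alveolar differentiation, was 2.19 to 11.79 in the tumors with a median of 11.25, against 13.09, 12.99, 12.66, 13.65 and 13.68 in the glands. All tumors were below all glands, by -4.14 (adjusted p = 0.031), but the call rested on tumors 3 and 4, at 2.19 and 5.06: without both of these the difference was -1.95 (adjusted p = 0.286). It was also lost when glands 1, 4 or 5 were left out singly, at adjusted p = 0.0502, 0.056 and 0.0551, and in a fit of the 2 groups alone (adjusted p = 0.0525). Gata3, a luminal master factor, differed by -2.66 (adjusted p = 0.0593). Muc1, a luminal surface mucin, was not called against the gland (0.04, adjusted p = 0.968) but was higher than in the other 7 models by 5.18 (adjusted p = 1.13e-09). Of 17 luminal genes 7 were higher and 1 lower, beside 26.1% and 16.6% of all genes. In the same list 6 were higher than in the other models, beside 10.6% of all genes.

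Basal and myoepithelial genes were lower in 7 of 15 cases, higher in 2 and not called in 6. Myh11, the smooth muscle myosin of contractile cells, was 2.24 to 4.26 in the tumors with a median of 2.41, against 8.88, 9.51, 9.02, 10.04 and 8.65 in the glands. The tumors were near the floor and did not overlap with the glands, at a difference of -6.36 ± 0.94 (adjusted p = 8.83e-07). Cnn1, calponin, fell by 5.71 and Mylk, myosin light chain kinase, by 3.62. Krt5, the basal keratin, was lower by -3.82 (adjusted p = 0.0284), and this call was lost without tumor 2 (-3.45, adjusted p = 0.0577), tumor 5 (-3.45, adjusted p = 0.0573), gland 1 (-3.77, adjusted p = 0.0515), gland 4 (-3.68, adjusted p = 0.0546) or gland 5 (-3.70, adjusted p = 0.0519). Krt14 differed by -1.98 (adjusted p = 0.189), with levels from 3.06 to 12.31 over the tumors. Krt17, a keratin of stressed or basal epithelium, was higher by 4.69 (adjusted p = 0.00294). Krt6a was higher by 4.15 (adjusted p = 0.0346), a call lost after centring (3.80, adjusted p = 0.0564), with values under 4 set to 4 (2.82, adjusted p = 0.102), with the mean of its probe sets (2.73, adjusted p = 0.174), or without any of tumors 1, 4 and 6 or glands 2 to 5. The median over the 15 genes was -2.05, and 16.6% of all genes were lower. Against the equally weighted mean of the other models 1 was higher and 1 lower. The higher was Cav1 (2.09), a call lost without tumor 1 or 4, and the lower Egfr (-2.57). Single models exceeded the p53-/- mean of 11.67 for Cav1, with 12.14 in MMTV-Wnt1 and 11.87 in BRCA1-/-p53+/-.

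Of 27 junction genes tested, 6 were higher, 2 lower and 19 not called (median 1.01), beside 26.1% of all genes higher and 16.6% lower. Lad1, ladinin of the basement membrane zone, rose by 8.24 (adjusted p = 5.64e-08), Dsp, desmoplakin, by 4.38 and the hemidesmosome integrin Itgb4 by 3.93, each without overlap. Cdh1, E-cadherin, was 11.6 to 13.1 in the tumors and 10.9 to 12.1 in the glands, and differed by 1.05 (adjusted p = 0.294). Cldn8, a claudin of the secretory gland, was lower by -5.27 and Tjp3 by -2.19, the latter lost without tumor 6 or glands 1 or 5. Among 20 EMT factors and mesenchymal genes 2 were higher, fibronectin Fn1 (4.26) and Tgfbi (2.41), and 1 lower, Zeb1 (-2.23, adjusted p = 0.0354). The Zeb1 call was lost without tumors 2, 3, 5 or 6 or glands 1, 2 or 3, and the Tgfbi call (adjusted p = 0.0497) under 5 settings, among them quantile normalization (2.15, adjusted p = 0.0756), and without tumors 1, 4, 6 or 7 or any single gland. Snai1 (2.20, adjusted p = 0.0696), Twist1 (0.24) and Cdh2, N-cadherin (-2.29), did not pass the test. Compared with the equally weighted mean of the other models, Fn1, Zeb2, Tnc and Cdh11 were higher, by 2.53, 1.79, 2.90 and 2.41. Single models reached similar levels, since the mean of Fn1 was 13.79 in C3(1)/Tag against 13.45 in p53-/-, that of Zeb2 7.92 in BRCA1-/-p53+/- against 7.80, and that of Tnc 10.86 in C3(1)/Tag against 11.12. The Zeb2 call was lost under either scaling, and both it and the Cdh11 call without tumor 4.

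**Figure D3:**
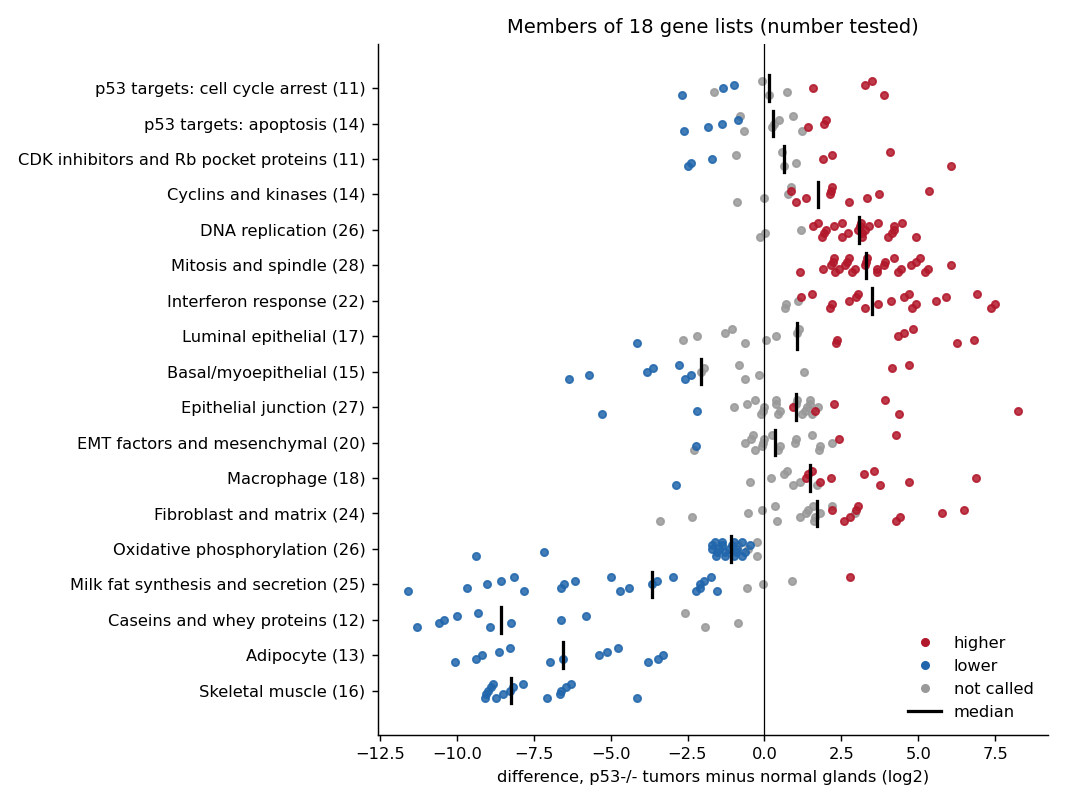
Difference in level (log2, p53-/- tumors minus normal glands) of each tested member of 18 gene lists, in red where higher and blue where lower at an adjusted p under 0.05 (limma); the black bar is the list's median. Mitosis, replication and interferon genes lie to the right, with milk, adipocyte and muscle genes to the left, and p53 targets on both sides of 0.

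Milk genes had the lowest median difference of the 44 lists. Of 12 caseins and whey proteins 9 were lower and 0 higher (median -8.58), and of 25 milk fat genes 21 were lower and 1 higher (median -3.64), beside 16.6% of all genes lower. Wap, whey acidic protein, was 15.57, 15.58, 15.48, 15.66 and 15.56 in the glands and 3.11 to 10.48 in the tumors with a median of 3.49. No tumor reached a gland, and the difference was -10.57 ± 1.45 (adjusted p = 2.37e-07). Csn2, beta-casein, was 15.47, 15.50, 15.33, 15.36 and 15.21 in the glands and spread over 2.25, 11.84, 2.90, 13.96, 7.06, 2.95 and 8.98 in tumors 1 to 7. Tumors 2 and 4 were the highest for Csn2, Wap, Glycam1 and Csn1s2a, and the Csn2 difference was -8.24 (adjusted p = 0.00131). Csn3, kappa-casein, stayed nearer to the gland, with a tumor median of 13.45 and tumor 3 at 7.13, and its difference of -2.59 did not pass the test (adjusted p = 0.0703). The milk protein Ltf (-1.93) and the milk fat globule gene Mfge8 (-0.86) were not called. Against the other 7 models 0 of 12 were called by limma, and 1 was lower at an unadjusted p under 0.05.

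Olah, the thioesterase that ends fatty acid chains at medium length, was 2.23 to 2.40 in the tumors and 11.47, 11.40, 9.68, 12.58 and 11.54 in the glands, lower by -9.01 (adjusted p = 6.98e-19). Fabp3, a fatty acid binding protein, was lower by -11.57, the largest difference among genes whose groups did not overlap, and Acaca, Fasn and Scd1, which make and desaturate fatty acids, by -4.69, -3.64 and -2.97. Scd2, a second desaturase, was the exception, at 11.84 to 13.97 in the tumors with a median of 13.23 and 9.47, 10.31, 10.80, 10.88 and 10.27 in the glands. All tumors were above all glands for Scd2, by 2.79 (adjusted p = 1.5e-08), while they were all below them for Scd1. Of 11 genes of STAT5 signalling and hormone response 7 were lower, among them Stat5a (-3.64), Stat5b (-2.10), the growth hormone receptor Ghr (-3.94), the STAT5 target Cish (-3.87) and Tnfsf11, the progesterone-induced RANK ligand (-3.62). Socs2, another cytokine-induced inhibitor, was higher by 1.98 and Socs3 by 3.04.

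Genes of adipocytes and of skeletal muscle were lower as well. Where their RNA in the glands came from was not tested. All 13 adipocyte genes were lower (median -6.55) and all 16 skeletal muscle genes (median -8.22). Adipoq, adiponectin, was 14.07, 14.35, 14.17, 13.22 and 13.44 in the glands, and 1.97 to 8.89 in the tumors with tumor 4 the highest. Its difference was -10.07 (adjusted p = 9.39e-06). Ckm, muscle creatine kinase, was 12.76, 3.95, 12.65, 12.05 and 13.60 in the glands and 2.19 to 3.50 in the tumors, so that gland 2 was close to the tumors and the other 4 glands far above. Against gland 2 alone 0 of 16 muscle genes were called by limma (1 at an unadjusted p under 0.05), at a median of -3.24, a comparison with a single gland whose spread is assumed to be that of the other groups.

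Ucp1, the uncoupling protein of brown fat, was 13.01, 13.96 and 14.05 in glands 1 to 3, 2.13 and 2.24 in glands 4 and 5, and 2.04 to 2.17 in the tumors. It thus divided the glands themselves, and Cox8b and Cox7a1, respiratory subunits of muscle and brown fat, followed, with Cox8b at 13.23, 13.87, 14.02, 8.52 and 10.77 in the glands and 2.11 to 3.37 in the tumors. Of 26 oxidative phosphorylation genes 22 were lower in the tumors and 0 higher (median -1.10), in the same samples in which the Ucp1 and muscle levels differ. With glands 4 and 5 alone, 9 of the 26 were lower at a median of -0.58. In that smaller comparison the lower calls over all 9329 genes also went from 1547 to 914. Glands 4 and 5 still held muscle RNA, with Ckm at 12.05 and 13.60, so this subset does not set muscle aside. The part of brown fat and muscle RNA in the difference was not tested. Against the other 7 models, 3 of the 26 were lower and 1 higher.

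Further genes with large differences and no overlap between the groups were D17H6S56E-5 (7.12) among those higher, and Lao1, an amino acid oxidase secreted in milk (-10.57), the milk lipase Cel (-10.41), the lipogenic gene Thrsp (-9.65) and Pck1, of gluconeogenesis and glycerol synthesis (-9.38), among those lower. Against the other 7 models, large differences in the direction seen against the gland were found for Mdk, the growth factor midkine (5.20, and 4.74 against the gland), Satb1, a chromatin organizer (-3.86 and -2.25), Ppp1r3c, a glycogen-targeting subunit (-3.79 and -6.86), Fam174b (-3.73 and -2.67) and Khdrbs3, an RNA-binding protein (-3.24 and -4.39). Mdk spanned 2.95 to 14.10 over the tumors and overlapped with the glands. The Satb1 call against the gland was lost with values under 4 set to 4 (-1.33, adjusted p = 0.14), in a fit of the 2 groups alone (adjusted p = 0.0612), and without any of tumors 1 to 5 or glands 1, 2, 4 or 5. With the replicate block, the calls of Fam174b (-2.23, adjusted p = 0.157) and Mdk (5.58, adjusted p = 0.063) against the gland were lost.

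**Figure D4:**
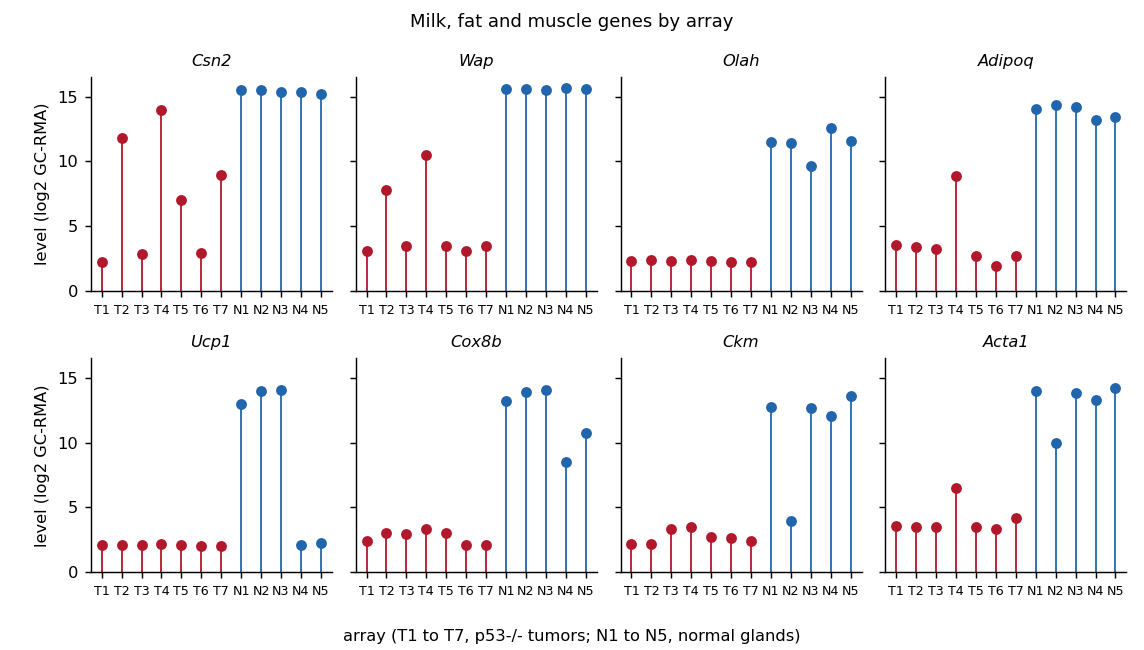
Level (log2 GC-RMA) of 8 genes in each of the 7 p53-/- tumors (T1 to T7, red) and 5 normal glands (N1 to N5, blue). Csn2, Wap, Olah and Adipoq are high in all glands, Ucp1 is high only in glands 1 to 3, Ckm is low in gland 2, and tumors 2 and 4 are the highest tumors for Csn2 and Wap.

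Markers of infiltrating and stromal cells moved unevenly. Of 18 macrophage genes 10 were higher and 1 lower (median 1.48), beside 26.1% and 16.6% of all genes. Arg1, arginase 1, ranged from 3.18 in tumor 7 to 13.61 in tumor 1 with a median of 9.90, against 2.62, 2.06, 2.59, 3.10 and 2.57 in the glands. All tumors were above all glands, by 6.87 (adjusted p = 2.79e-05), and the means of the other models, from 7.87 to 13.24, lay on both sides of the p53-/- mean of 9.46. The high-affinity Fc receptor Fcgr1 was higher by 4.69 and the lysosomal marker Cd68 by 3.56, the defining markers Csf1r and C1qa by 1.35 and 1.79, while Adgre1, a surface marker of mature macrophages, was not called (0.20, adjusted p = 0.743) and the scavenger receptor Cd163 was lower by -2.88. The Csf1r call was lost after centring (1.01, adjusted p = 0.0632). Of 5 neutrophil genes 3 were higher and 0 lower, beside 26.1% and 16.6% of all genes. S100a9 was higher by 4.58, while the other defining markers differed less. S100a8 averaged 9.43 in the tumors and 7.13 in the glands. Csf3r averaged 5.0 and 4.17, and its call was lost under either scaling and without any single gland. The chemokine Cxcl1 and the cytokine Il1b rose by 5.08 and 4.53. The hepatic-type acute phase genes Saa1 and Orm1 were lower, by -7.39 and -7.26.

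Of 24 fibroblast and matrix genes 9 were higher and 0 lower (median 1.71), beside 26.1% and 16.6% of all genes. The largest increases were in the collagenase Mmp13 (6.47), its inhibitor Timp1 (5.76) and thrombospondin Thbs1 (4.40). Mmp13 was 6.42 to 12.72 in the tumors with a median of 11.23 and 3.40, 2.73, 3.70, 4.49 and 3.23 in the glands. It was above the glands in every tumor and above the other models by 4.42 (adjusted p = 0.00152). The defining fibroblast genes Col1a1 (1.79), Col1a2 (1.17), Col3a1 (-0.55), Dcn (-3.39) and Pdgfra (-0.63) did not pass the test. Of 15 endothelial genes 1 was higher and 4 lower, again beside 26.1% and 16.6% of all genes. The angiopoietin receptor Tek (-3.52) was lower, while Kdr (0.25), Cdh5 (-1.24) and Pecam1 (-0.20) were not called. Few lymphocyte genes were tested. Thy1, which fibroblasts also express, was higher by 3.26, Cd3g (-1.10), Ms4a1 (-0.95) and Cd79b (-0.02) were not called, and the plasma cell gene Jchain (-1.02) was not called against the gland but was above the other models by 4.16 (adjusted p = 0.00209). What these cell types contribute to the other lists was not tested.

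Growth factors and receptors moved in both directions. Tgfa, an EGF receptor ligand, was 7.84 to 11.72 in the tumors with a median of 9.42 and 4.82, 3.78, 2.97, 2.65 and 2.53 in the glands. All tumors were above all glands, by 6.07 (adjusted p = 8.49e-08). Against the equally weighted mean of the other models they were higher by 2.18 (adjusted p = 0.00561), but single models came close. The Tgfa mean was 9.02 in MMTV-Her2/neu, 8.83 in C3(1)/Tag and 4.52 in BRCA1-/-p53+/-, against 9.42 in p53-/-. Hbegf, another ligand of this receptor, was higher by 4.52, whereas Egfr itself (-2.05, adjusted p = 0.0635) was not called against the gland and was lower than in the other models by -2.57. Of 21 growth factors 8 were higher and 3 lower, beside 26.1% and 16.6% of all genes, and 8 were higher than in the other models, beside 10.6% of all genes. Met, the receptor of hepatocyte growth factor, was 13.27, 12.16, 11.98, 11.59, 11.94 and 11.43 in tumors 1 to 6 and 3.95 in tumor 7, against 3.98, 6.06, 4.54, 3.98 and 4.00 in the glands. Only tumor 7 lay with the glands, and the difference was 6.39 (adjusted p = 0.000124), or 5.86 against the other models (adjusted p = 2.18e-05), whose means ran from 3.00 to 6.79. The Met ligand Hgf (-0.04) was not called. The immediate early genes Fos, Jun and Junb rose by 3.07, 2.54 and 3.99, and Myc (1.04) was not called.

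Cd44, a hyaluronan receptor counted among Wnt targets, was higher by 5.65 (adjusted p = 5.03e-13), but the feedback antagonists Axin2 (-1.06), Notum (-0.14) and Rnf43 (-1.23) were not called, and 5 of 17 genes of that list were higher and 0 lower. In the Notch pathway Hes1, its classic target, was higher by 3.41, the ligand Jag1 by 2.50 and the cofactor Rbpj by 2.58, with 4 of 15 genes higher and 1 lower. The counts of higher genes in the Wnt and Notch lists were near the 26.1% of all genes that were higher, and 16.6% of all genes were lower. Gpx2, a glutathione peroxidase of epithelium, was 9.41 to 12.66 in the tumors with a median of 12.15 and 3.11, 3.11, 3.54, 3.60 and 3.54 in the glands. The groups were far apart, by 8.02 ± 1.04 (adjusted p = 9.85e-08), and Gpx2 exceeded the other models by 6.18 (adjusted p = 1.25e-07). Akr1b8, an aldo-keto reductase, was higher by 5.94 and by 3.50 in the same 2 comparisons. Its model means ran from 5.23 in MMTV-Her2/neu to 9.55 in BRCA1-/-p53+/- and 9.62 in C3(1)/Tag, against 10.98 in p53-/-. The NRF2 targets Gclm (0.10) and Srxn1 (0.07) were not called. Of 16 glutathione and NRF2 genes 5 were higher and 3 lower, beside 26.1% and 16.6% of all genes.

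Aqp5, a water channel of secretory glands, had the largest increase among genes whose groups did not overlap. It was 9.02 to 14.20 in the tumors with a median of 12.78, against 2.50, 2.51, 2.97, 3.38 and 3.38 in the glands, a difference of 9.10 ± 0.70 (adjusted p = 3.43e-13). It did not separate the p53-/- tumors from the other models (0.03, adjusted p = 0.978), whose means were 9.46 to 14.51. Wfdc2, a secreted protease inhibitor, was higher by 8.93 against the gland and 4.34 against the other models. Its model means ran from 3.22 in MMTV-Her2/neu to 11.52 in C3(1)/Tag, against 12.79 in p53-/-. The carbonic anhydrase of tumor hypoxia, Car12, rose by 6.99 and Car9 by 4.18, and Car4, of the gland's vessels and secretory cells, fell by 8.70. The hypoxia targets Adm and Vegfa were higher by 4.27 and 1.40, the Vegfa call being lost under either scaling and without tumors 1 or 3 or gland 1. Of 26 glycolysis and hypoxia genes 12 were higher and 3 lower, and 9 were above the other models, beside 10.6% of all genes. The hypoxia gene Bnip3 was lower, at a mean of 11.38 against 12.7 in the glands. The glycolysis genes Hk2 (9.57 against 10.79) and Pfkl (11.27 against 12.63) were lower too. In a fit of the 2 groups alone the Bnip3 and Hk2 calls were lost (limma, adjusted p = 0.148 and 0.106). Of 19 ribosome biogenesis genes 12 were higher and 0 lower (median 1.17), of 14 sterol synthesis genes 5 higher and 2 lower, of 20 ER chaperones and unfolded protein response genes 6 higher and 2 lower, and of 13 polycomb and DNA methylation genes 7 higher and 0 lower. Over all genes, 26.1% were higher and 16.6% lower. Where a list is given with 0 members in a direction against the gland, none reached an unadjusted p under 0.05 in that direction either (limma), except 1 fibroblast and matrix gene and 1 polycomb gene, both lower.

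The 7 tumors differed more among themselves than the 5 glands did. The median SD over genes was 0.61 in the tumors and 0.47 in the glands, and 65.3% of genes had the larger SD in the tumors. The values below describe single tumors, and no test was made. Tumors 3 and 4 stood apart from the rest in epithelial factors. Elf5 was 2.19 and 5.06 in them, against 10.29 to 11.79 in the other 5, and Sox10, a factor of progenitor and myoepithelial cells, was 3.84 and 5.37 against 11.96 to 12.82. Ehf, a further epithelial ETS factor, was 3.16 and 6.40 against 10.21 to 11.76. In the same pair Foxa1, the pioneer factor of hormone-responsive luminal cells, reached 13.13 and 12.47 and was 2.65 to 9.87 elsewhere. Sprr1a, a cornified envelope protein, was 13.25 and 14.70 against 2.24 to 6.05, Tph1, of serotonin synthesis, 12.31 and 13.73 against 2.13 to 2.17, and Rbp4, a retinol carrier, 12.38 and 11.09 against 2.16 to 5.23. Tph1, Sprr1a and Krt19 were among the genes with the largest SD, at 5.32, 5.54 and 5.40.

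Tumor 7 stood apart in several basal genes, though not in every basal keratin. Krt5 was 11.28 there and 2.95 to 5.44 in the other 6, Trp63 10.84 against 2.29 to 6.89, Snai2, a factor of basal cells, 8.54 against 3.03 to 5.67, and Wif1, a secreted Wnt inhibitor, 13.45 against 2.37 to 8.59. It was also the tumor with Met at 3.95, Arg1 at 3.18 and Rb1 at 10.75. Krt14 did not follow Krt5, at 11.68, 12.31 and 10.73 in tumors 1, 6 and 7 and 3.06 to 5.91 in the rest. Krt19, a luminal keratin, was low in tumors 1, 5 and 6, at 2.65, 2.12 and 4.38, and 11.32 to 14.16 in the other 4. Krt6a was highest in tumors 1 and 6, at 12.40 and 11.03. Despite these differences, Krt8, Krt18, Plk1 and Ifit1 were above all glands in each of the 7 tumors and Ccng1 below.

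**Figure D5:**
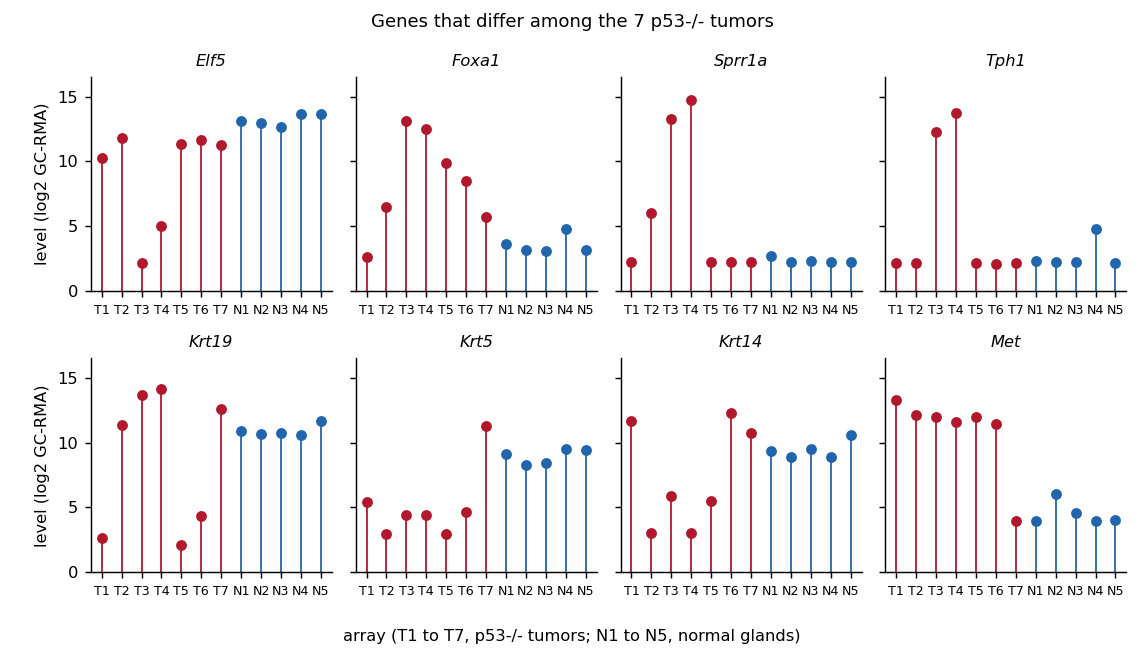
Level (log2 GC-RMA) of 8 genes in each of the 7 p53-/- tumors (T1 to T7, red) and 5 normal glands (N1 to N5, blue). Elf5 is low and Foxa1, Sprr1a and Tph1 are high in tumors 3 and 4, Krt5 is high and Met low in tumor 7, and Krt19 is low in tumors 1, 5 and 6.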

How the data were processed

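Total RNA of the tumors and glands was hybridised to Affymetrix mouse arrays (mirVana extraction, One Cycle labelling). The deposited values are log2 intensities that the authors made with GC-RMA in Partek from GCOS scans, and per the study's methods probe sets called present or marginal by MAS5 in few samples were removed. Software versions are not given in the sources used here. The table holds 18586 probe sets and 46 arrays, and no 2 arrays were identical. Here, probe sets of a single gene in GEO's platform annotation (16962, of which 16941 were found in RefSeq) were kept at log2 over 4 in at least 3 arrays, and each gene was represented by the probe set with the highest mean over all arrays, which left 9329 genes. A fit of 9 groups over 46 arrays (limma 3.58.1, R 4.3.3, lmFit and eBayes, Benjamini-Hochberg over all genes) gave both contrasts, the other 7 models being weighted equally. Array counts used an adjusted p under 0.05 and at least 2-fold, list members an adjusted p under 0.05. On simulated data the fit was tested for known differences. Groups came from the labels, and replicates are arrays of separate mice. Array number (7 and 5) limits the precision.

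Members and the 44 gene lists were chosen with earlier results of these data known. Named genes were the 10 called genes in each direction that differed most and had no overlap between groups, the 8 per direction furthest from the other models and called alike in both comparisons, up to 4 called members per direction in each list, all members of the p53, CDK inhibitor, keratin, junction and EMT lists, the 10 genes of largest SD over the tumors, and cell type markers; others were named after their values were seen. Alternatives covered normalization, filter, floor, probe set mean, variance model, replicate block and leaving out each array, plus 3 subsets of glands or tumors chosen after seeing the data. Promoters came from RefSeq (GRCm38.p6). Same-numbered arrays did not deviate together (r from -0.017 to 0.052), so numbers were not taken as pairs.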

Additional observations from a re-analysis of the deposited data

Results flagged for a closer look

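In 47 of 398 groups looked at (199 named genes in the 7 tumors and in the 5 glands), 1 array lay far from the others by Dixon's test. Chance flags about 1 in 20 groups, but some genes were named for their spread over the tumors or after their values were seen, so this count cannot be read against that rate. Some of these groups span little of the scale, such as Cel over the tumors. All values are log2 levels, and what set these arrays apart was not tested. Tumor 1 was the highest of 7 for Notum (2.95). Tumor 2 was the highest of 7 for Saa1 (12.93). Tumor 3 was the highest of 7 for Fam174b (7.66). Tumor 3 was the lowest of 7 for Cd68 (7.13) and Csn3 (7.13). Tumor 4 was the highest of 7 for Adipoq (8.89), Cish (9.76), Fabp3 (6.87), Pck1 (4.72), Tnfsf11 (2.91) and Zeb1 (8.19). Tumor 4 was the lowest of 7 for Car12 (6.76) and Chek2 (5.54). Tumor 5 was the highest of 7 for Tyms (4.23). Tumor 5 was the lowest of 7 for H2-DMa (6.57). Tumor 6 was the lowest of 7 for Bbc3 (5.00). Tumor 7 was the highest of 7 for Cd163 (5.57), Cd3g (3.58), Cel (2.14), Cnn1 (5.15), Krt5 (11.28) and Satb1 (8.11). Tumor 7 was the lowest of 7 for Hbegf (6.08), Ifit1 (8.13), Met (3.95) and Usp18 (8.25). Gland 1 was the highest of 5 for Cxcl1 (5.39), Krt6a (3.02) and Sprr1a (2.71). Gland 1 was the lowest of 5 for D17H6S56E-5 (2.92) and Plk2 (4.95). Gland 2 was the highest of 5 for Met (6.06). Gland 2 was the lowest of 5 for Ckm (3.95) and Gadd45a (3.23). Gland 3 was the highest of 5 for Cdkn2b (5.88). Gland 3 was the lowest of 5 for Apaf1 (5.31). Gland 4 was the highest of 5 for Car9 (4.81), Tph1 (4.77) and Wfdc2 (5.88). Gland 4 was the lowest of 5 for Ccng1 (11.87), Mcm3 (2.77), Mcm5 (2.67) and Tnfsf11 (2.80). Gland 5 was the highest of 5 for Cldn4 (8.42), Snai1 (2.83) and Thbs1 (7.07). Gland 5 was the lowest of 5 for Jag1 (3.11).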

How the results depend on the processing

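Scaling moved the split of calls against the gland most among the planned settings, as given in the report, and the counts of genes at least 2-fold higher or lower stayed within 1.5 times under each planned setting. When single arrays were left out, genes higher than in the gland ranged from 1756 to 2019 and genes lower from 1185 to 1294, and against the other 7 models from 465 to 678 and from 229 to 316. Of 218 named calls against the gland, 185 held when any 1 array was left out and 167 under every planned setting that kept all arrays.

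Settings chosen after seeing the data changed more. With glands 4 and 5 alone 1162 genes were higher, and with gland 2 alone 573 were higher and 684 lower. Fewer glands entered these fits, and a lone gland was assumed to vary like the other groups. Epb42 turned to 0.00 with values under 4 set to 4, Pdxdc1 to 0.22 against the gland and 0.62 against the other models with the mean of its probe sets, and Tph1 to -0.19 against the other models without tumors 3 and 4. The cause was not tested beyond the construction of each setting.

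Deviations of same-numbered tumors and glands correlated at -0.0015, 0.052, 0.03, 0.019 and -0.017, so the numbers did not pair the samples. With the replicate block in a fit of the 2 groups, 1577 genes were higher and 1068 lower. Small differences in dim genes near the floor of GC-RMA could not be measured.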
